A study of Mus musculus with 33 samples.

Results

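The respiratory chain genes are the transcripts that encode the subunits of mitochondrial complexes I to V, from both the nuclear and the mitochondrial genome. They were chosen by symbol (Ndufa, Ndufb, Ndufc, Ndufs and Ndufv, Sdha to Sdhd, Uqcr, Cyc1, Cox4 to Cox8 and Atp5 in the nucleus, and Nd, Co, Cytb and Atp in the mitochondrion) and by a minimum of 10 reads summed over an experiment. In the first experiment 102 of 18054 gene rows met the rule, and in the second 101 of 18052. Of the 102 found in either table, 13 are mitochondrial and 89 nuclear. The nuclear genes fall into 36 subunits of complex I, 4 of complex II, 9 of complex III, 12 of complex IV and 15 of complex V, with 7 complex I assembly factors (Ndufaf), the pair Atp5s and Atp5sl, and 4 isoforms known from other tissues. Complex II is the one complex with no mitochondrial gene.

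Complexes I and II feed electrons into ubiquinone, complex III passes them to cytochrome c, complex IV hands them to oxygen, and complex V, the ATP synthase, uses the proton gradient to make ATP. The mitochondrial genome encodes core subunits of complexes I, III, IV and V, which are cotranscribed as long precursors and must be assembled with subunits made from nuclear genes. Activated T cells raise both glycolysis and mitochondrial content, while memory and tissue-resident CD8 T cells are known for a reliance on oxidative metabolism.

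Live CD45+CD8+ T cells were sorted from the skin of mice with contact allergy to DNFB (2,4-dinitrofluorobenzene), a hapten that elicits a CD8 T cell-mediated dermatitis, and their RNA was measured by CEL-seq2, which reads the 3′ ends of transcripts. TA was applied to the skin at 0.01%, and acetone was the control treatment. The first experiment used Nur77GFP mice, whose GFP reports recent T cell receptor (TCR) signalling, and sorted CD69+CD103+ resident memory T cells (TRM). The second used wild-type C57BL/6 mice. The first held GFP-negative cells from just before the DNFB retest (day 0; 3 acetone and 2 TA libraries), GFP-negative and GFP-positive cells from day 1 (24 hours), and GFP-negative cells from day 6 (144 hours), each with 2 acetone and 2 TA libraries. The second held day 2 cells of 4 subsets, defined by CD69 and CD103, with neither acetone nor TA. It also held CD69+CD103+ TRM of day 11 and day 42 with acetone or TA, and each group had 2 libraries. These days count from DNFB. In all there were 33 libraries in 16 sorted groups. The labels give neither age nor whether libraries came from separate animals, so p-values measure only the spread between libraries, which may be technical.

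Column names of the count tables identified day 0 acetone cells, the GFP state of day 1 cells and day 2 CD69+CD103+ cells. For the other sets they gave only codes, so neutral names are used. Day 1 arms I and II are acetone and TA in unknown order. Sets K, L and M are day 0 TA, day 6 acetone and day 6 TA in unknown order, and U, V and W are the other 3 day 2 subsets. P, Q, R and S are the 4 day 11 and day 42 sets. No difference below can therefore be read as an effect of TA.

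Total reads per library ran from 2442825 to 8515297 in the first experiment and from 2937814 to 13629838 in the second. Of 8 CD8 T cell markers, 7 were listed, none was at 0 in any library, and their sum ranged from 4062 to 9144 CPM in the first experiment and from 4434 to 7759 CPM in the second (CPM, a gene's reads scaled to a common library total). Transcripts of other skin cells were present: the 12 keratinocyte markers, of which 0 to 2 were at 0 in a library, summed to 469 to 6185 CPM in the first experiment and 2119 to 6240.1 CPM in the second, and the 11 listed of 12 mononuclear phagocyte markers, with 0 to 6 at 0, summed to 20.3 to 839.6 and 115 to 957 CPM. In RNA of sorted cell pools, fewer cells of a type and less RNA per cell cannot be told apart. The values of single genes below are normalised CPM, which is CPM after further scaling by TMM (trimmed mean of M-values) factors, and a gene is said to have risen or fallen where edgeR's quasi-likelihood test gave a Benjamini-Hochberg adjusted p under 0.05 over all genes tested.

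The promoters of 4 nuclear members are shown because these genes were called higher in set M and lower at day 11 and day 42, and kept both calls under every other processing tried except library totals and with each library left out. They were chosen after their values were seen. Each is the sequence just before the gene's start in RefSeq (GRCm38.p6), 5′ to 3′ on the gene's own strand, except that for Ndufa4 the 47 bases next to the RefSeq start are left out because they lie inside the GENCODE transcript, which leaves 203 bases against 250 for each of the others. Capitals mark the letters CCAAT on either strand or GCGCANGC, the motif of nuclear respiratory factor NRF1.
Cox5a, chr9:57520982-57521231 (+): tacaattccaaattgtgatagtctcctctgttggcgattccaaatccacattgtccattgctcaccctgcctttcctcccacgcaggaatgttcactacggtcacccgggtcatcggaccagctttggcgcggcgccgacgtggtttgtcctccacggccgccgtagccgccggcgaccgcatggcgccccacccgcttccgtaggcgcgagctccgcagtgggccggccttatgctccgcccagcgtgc
Ndufa4, chr6:11907498-11907700 (-): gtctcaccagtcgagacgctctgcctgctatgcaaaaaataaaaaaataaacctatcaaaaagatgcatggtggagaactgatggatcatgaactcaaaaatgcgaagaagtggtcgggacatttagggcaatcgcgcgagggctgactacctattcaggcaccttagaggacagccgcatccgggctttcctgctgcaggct
Ndufc2, chr7:97399753-97400002 (+): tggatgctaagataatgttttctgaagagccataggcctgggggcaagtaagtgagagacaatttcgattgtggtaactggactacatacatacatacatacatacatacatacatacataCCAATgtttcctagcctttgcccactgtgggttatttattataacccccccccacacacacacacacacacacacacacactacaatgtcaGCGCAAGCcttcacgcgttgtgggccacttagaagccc
Uqcr10, chr11:4704345-4704594 (-): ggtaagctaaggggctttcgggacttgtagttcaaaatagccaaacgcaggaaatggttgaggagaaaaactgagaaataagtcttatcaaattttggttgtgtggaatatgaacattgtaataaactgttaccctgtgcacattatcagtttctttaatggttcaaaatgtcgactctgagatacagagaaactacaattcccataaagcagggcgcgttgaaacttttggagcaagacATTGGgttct

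Cox5a and Ndufa4 encode complex IV subunits, Ndufc2 a complex I subunit and Uqcr10 a small complex III subunit. Among the stretches as printed, that of Ndufc2 held the NRF1 letters, and those of Ndufc2 and Uqcr10 held CCAAT; the bases left out for Ndufa4 are not covered by this count. Over the 74 of 89 nuclear members with a promoter entry, the NRF1 motif GCGCANGC lay within 250 bases before the start on either strand in 20, or 27.0%, against 9.38% of 27025 genes with an entry. It was present in 8 of 32 complex I, 3 of 3 complex II, 0 of 5 complex III, 1 of 10 complex IV and 6 of 14 complex V promoters. CCAAT was present in 44.6% of the members' windows and in 37.5% of all genes' windows, the ETS-family letters CCGGAAGT in 4.05% and 3.23%, and the YY1 letters AAGATGGC in 2.7% and 1.83%. A match is a description of letters, not a measured binding site.

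Messenger reads of the 13 mitochondrial genes made up 11.9% to 20.2% of all reads in the first experiment and 10.1% to 15.9% in the second. Nuclear subunits of complexes I to V together made up 1.15% to 2.28% and 1.17% to 1.86%. The nuclear share was highest in set M, at 2.16 and 2.28%, next in set L, at 1.91 and 1.84%, and lay between 1.60% and 1.72% in the 3 day 0 acetone libraries. All 8 day 1 libraries were lower, between 1.15% and 1.51%, and GFP-positive arm I was at 1.15 and 1.22%. Set K was also lower than day 0, at 1.41 and 1.51%. These shares depend on the mitochondrial reads in the total. Of reads outside the mitochondrial genome, nuclear subunits took 2.22 and 2.32% in set K and 2.29% to 2.34% at day 0, which overlapped. Day 1 libraries remained lower by this measure, between 1.48% and 2.12%. In the second experiment the share of all reads was highest in set U, at 1.80 and 1.86%. Day 2 CD69+CD103+ cells were at 1.66% and 1.73%, and sets V and W between 1.53% and 1.68%. Set P was at 1.49 and 1.51%, and sets Q, R and S between 1.17% and 1.31%.

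**Figure D1:**
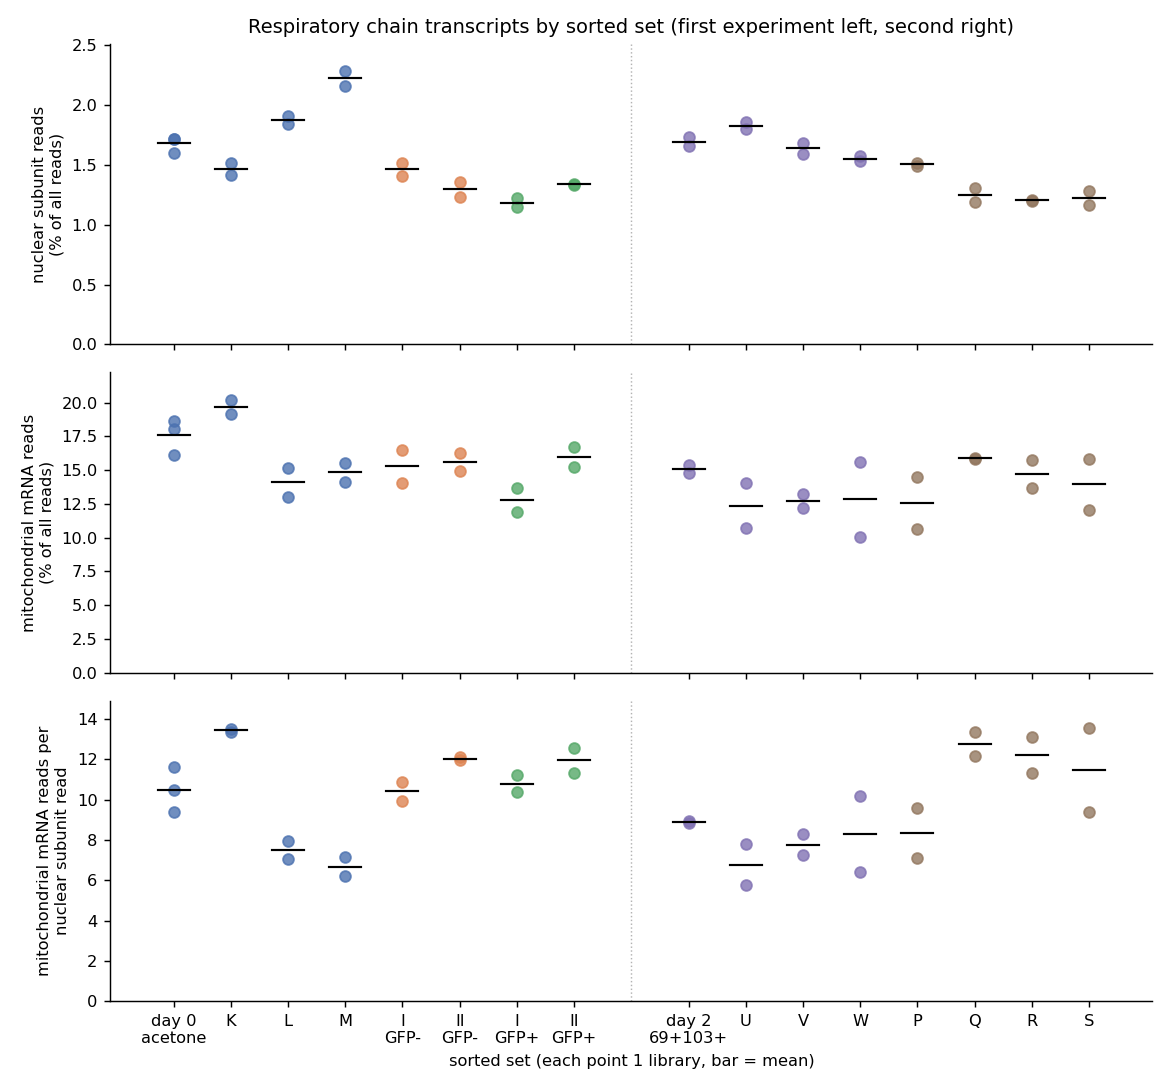
Share of reads from nuclear subunits of complexes I to V (%), share from mitochondrial mRNAs (%) and the ratio of both read numbers, by sorted set; each point is 1 library and each bar the mean of its set. The nuclear share peaks in set M at 2.16 and 2.28%, and the ratio runs from 5.76 to 13.6 mitochondrial reads per nuclear subunit read.

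The ratio of mitochondrial mRNA reads to nuclear subunit reads needs no scaling between libraries. It was 9.39 to 11.6 in day 0 acetone cells, 13.5 and 13.4 in set K, 7.96 and 7.08 in set L and 7.18 and 6.20 in set M. Sets L and M lay wholly below day 0 and set K wholly above it, while day 1 cells spanned 9.94 to 12.6. In the second experiment, day 2 CD69+CD103+ cells were at 8.87 and 8.93 and set P at 7.11 and 9.58, which overlapped. Sets Q, R and S lay between 9.42 and 13.6, above day 2 CD69+CD103+ cells but not above both libraries of set P. Libraries of 1 set could differ widely, as in set W, at 10.2 and 6.40, and set S, at 9.42 and 13.6.

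Of nuclear subunit reads, complex V took 33.9% to 38.8%, complex I 24.6% to 31.0%, complex IV 23.9% to 27.1%, complex III 7.79% to 10.5% and complex II 0.904% to 1.80%, over all 33 libraries. Complex I took 28.54% to 30.6% in GFP-negative and 26.1% to 28.62% in GFP-positive day 1 cells, ranges that overlap. Of mitochondrial mRNA reads, complex IV genes took 34.5% to 42.9%, complex I genes 18.4% to 31.2%, complex V genes 20.95% to 30.8% and mtCytb, the one complex III gene, 8.34% to 12.2%. Set P was lowest in the complex I share, at 18.4 and 19.7%, and highest in the complex IV share, at 42.9 and 42.2%. These shares compare libraries and not complexes, which differ in their number of genes.

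Every complex had members read in all libraries. Of complex I, Ndufa12 ran from 544 to 1087 normalised CPM in the first experiment (median 720.1) and from 376 to 733 in the second (median 552). Of complex II, Sdha ran from 38.5 to 99.9 and from 40.6 to 102. Of complex III, Uqcrh, a hinge protein beside cytochrome c1, ran from 156 to 313 and from 146 to 306. Uqcrq, the complex III member with the most reads, ran from 319 to 949 and from 238 to 582. Of complexes IV and V, Cox8a ran from 629 to 1229 and from 674 to 1034, and Atp5h from 686 to 1559 and from 761 to 1428. Levels are not compared between genes.

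In set M, 26 of 75 nuclear subunits tested rose, none of them of complex II, and no mitochondrial gene was called. Against day 0 acetone cells 26 of 98 members were higher and 0 lower, where 2.87% of all 11588 genes tested were called higher and 1.7% lower. The 26 comprised 8 of 35 complex I, 0 of 4 complex II, 3 of 9 complex III, 6 of 12 complex IV and 9 of 15 complex V subunits. Of the 75 nuclear subunits tested, 72 had a fold change above 0, with a median log2 fold change of 0.58, against -0.02 over all genes. The 13 mitochondrial genes had a median of -0.25, with 4 above 0 and 9 below, where 3 had an unadjusted p under 0.05 and DESeq2 called 0 lower.

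Cox5a, a matrix-side subunit of complex IV, was at 179, 176 and 161 in the 3 day 0 acetone libraries and at 331 and 309 in set M (log2 fold change 0.89, SE 0.14, edgeR adjusted p = 0.00046). Uqcr10 was at 119, 119 and 142 at day 0 and at 283 and 254 in set M (log2 fold change 1.08, SE 0.19, edgeR adjusted p = 0.0017). Ndufc2 was at 276, 273 and 258 and at 520.0 and 533 (log2 fold change 0.97, SE 0.17, edgeR adjusted p = 0.0013). In all 3 genes both libraries of set M lay above all 3 of day 0. Ndufa4 was at 398, 419 and 438 at day 0 and at 762 and 764 in set M (log2 fold change 0.87, SE 0.18, edgeR adjusted p = 0.0063). Uqcrq, another small complex III subunit, was at 534, 565 and 507 and at 949 and 922 (log2 fold change 0.80, SE 0.17, edgeR adjusted p = 0.0060). Cox8a, a small membrane subunit of complex IV, was at 779, 824 and 819.9 and at 1229 and 1198 (log2 fold change 0.59, SE 0.11, edgeR adjusted p = 0.0022). For each of the 26 called genes the libraries of set M and day 0 did not overlap. The genes were called on these same libraries, so this is not separate evidence. The share of all genes tested without overlap is not given here, and Sdhc, which was not called, did not overlap either.

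The other called genes of set M had log2 fold changes between 0.58 and 0.99. In complex I these were Ndufa11, Ndufa12, Ndufa3, Ndufb7, Ndufb6, Ndufa8 and Ndufv2, in complex III Uqcrb, and in complex IV Cox6b1, Cox7a2 and Cox5b. In complex V they covered the membrane ring (Atp5g1 and Atp5g2, which encode subunit c), the central stalk (Atp5d and Atp5e) and the peripheral stalk or membrane part (Atp5o, Atp5j, Atp5j2, Atp5k and Atp5l). The succinate dehydrogenase genes were not called. Sdha, the flavoprotein, was at 99.9, 57.3 and 90.9 at day 0 and 72.2 and 48.0 in set M, while Sdhc, a membrane anchor, was at 55.4, 60.2 and 39.4 and 83.8 and 94.3. The mitochondrial mtNd3 was at 7590.2, 8209 and 6891 at day 0 and 8513 and 8016 in set M, which overlapped.

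Of the 26 calls in set M, 16 remained under every other processing but library totals and 11 also with each library left out in turn; leaving out either library of set M gave 12 calls, and leaving out day 0 library C gave 17. Scaled by library totals alone, which moved the median of all genes to -0.17, 16 members were called higher and 3, all mitochondrial, lower. The keratinocyte markers summed to 5536 to 6185 CPM in set M and to 3472 to 4064 CPM at day 0, with 5 of 12 called higher and 1 lower. Neutrophil markers summed to 28.1 to 38.0 CPM in set M and 2.87 to 10.7 CPM at day 0, with 2 of 4 tested called higher. Fibroblast markers summed to 10.2 to 15.5 CPM against 43.6 to 169 CPM, CD8 T cell markers to 7037 to 7437 CPM against 7732 to 9144 CPM, and CD4 T cell markers to 2.72 to 6.92 CPM against 0. None of these sums overlapped, and their part in the result was not tested. Total reads did not overlap either, at 7708896 and 7369762 in set M and 3488476 to 6982296 at day 0.

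Set K differed from day 0 in 4 mitochondrial and 5 nuclear genes. Of 98 members 6 were called higher and 3 lower, where 1.19% of all genes were called higher and 2.34% lower. The 4 mitochondrial genes among them were mtNd3 and mtNd1, complex I subunits, mtCo3, a core complex IV subunit, and mtAtp8, a small complex V subunit, and all were higher. mtNd3 was at 7590.2, 8209 and 6891 at day 0 and at 11383 and 12535 in set K (log2 fold change 0.66, SE 0.12, edgeR adjusted p = 0.0016). mtAtp8 was at 494, 536 and 483 and at 748 and 819.9 (log2 fold change 0.64, SE 0.14, edgeR adjusted p = 0.0090). Both libraries of set K lay above all 3 of day 0 in each. The neighbouring mtAtp6, which overlaps mtAtp8 by 43 bases, was not called. mtNd1 and mtCo3 had log2 fold changes of 0.44 (SE 0.11) and 0.46 (SE 0.11). Of the 13 mitochondrial genes 12 were above 0, with a median of 0.37, against -0.10 for the nuclear subunits and -0.04 over all genes.

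Among nuclear genes in set K, Ndufc2 fell, from 276, 273 and 258 at day 0 to 119 and 165 (log2 fold change -0.92, SE 0.17, edgeR adjusted p = 0.0033). Atp5o, a peripheral stalk subunit, and Atp5b, the catalytic beta subunit, were also lower (-0.71, SE 0.17 and -0.49, SE 0.13). Cox7a2l, counted here with complex IV by its symbol, was at 223, 203 and 281 at day 0 and at 398 and 400.0 in set K (log2 fold change 0.76, SE 0.16, edgeR adjusted p = 0.0080). Ndufa6, a complex I accessory subunit, also rose (0.67, SE 0.15). Of the 9 calls, 3 remained under every other processing but library totals and mtNd3 alone also with each library left out; without set K library A, set K library B or day 0 library C there were 4, 3 and 5 calls, and scaling by library totals, which moved the median of all genes to -0.20, gave 4 higher and 6 lower. Set K also had 14.7% and 17.2% of reads from mitochondrial ribosomal RNA against 6.86% to 12.9% at day 0, and phagocyte markers of 20.3 to 43.4 CPM against 229 to 404 CPM, with 5 of 10 tested called lower. Keratinocyte markers summed to 1645 to 1683 CPM in set K and 3472 to 4064 CPM at day 0 (3 of 12 lower), CD8 T cell markers to 5562 to 5903 and 7732 to 9144 CPM (2 of 7 lower) and fibroblast markers to 12.9 to 26.8 and 43.6 to 169 CPM (0 called). Total reads were 2560156 and 2952120 in set K and 3488476 to 6982296 at day 0. None of these measures overlapped between the sets, and the part of the ribosomal RNA and the markers was not tested.

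In set L no member was called by edgeR, where 0.276% of all genes were called higher and 0.621% lower. At an unadjusted p under 0.05 there were 12 members, and DESeq2 called 1. All 13 mitochondrial genes were below 0, with a median log2 fold change of -0.39, and 59 of 75 nuclear subunits were above 0, with a median of 0.12. Over all genes the median was -0.007. As the mitochondrial genes are cotranscribed, their signs are not separate observations. mtCytb was at 16360.1, 18723 and 14885 at day 0 and at 13667 and 11509 in set L (log2 fold change -0.40, SE 0.12, edgeR adjusted p = 0.19). Cox8a was at 1040.1 and 1075 in set L, above its 3 day 0 values (log2 fold change 0.39, SE 0.11, edgeR adjusted p = 0.12). Keratinocyte markers summed to 1139 to 1247 CPM in set L and 3472 to 4064 CPM at day 0, and fibroblast markers to 2.93 to 5.82 and 43.6 to 169 CPM, and their part was not tested.

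**Figure D2:**
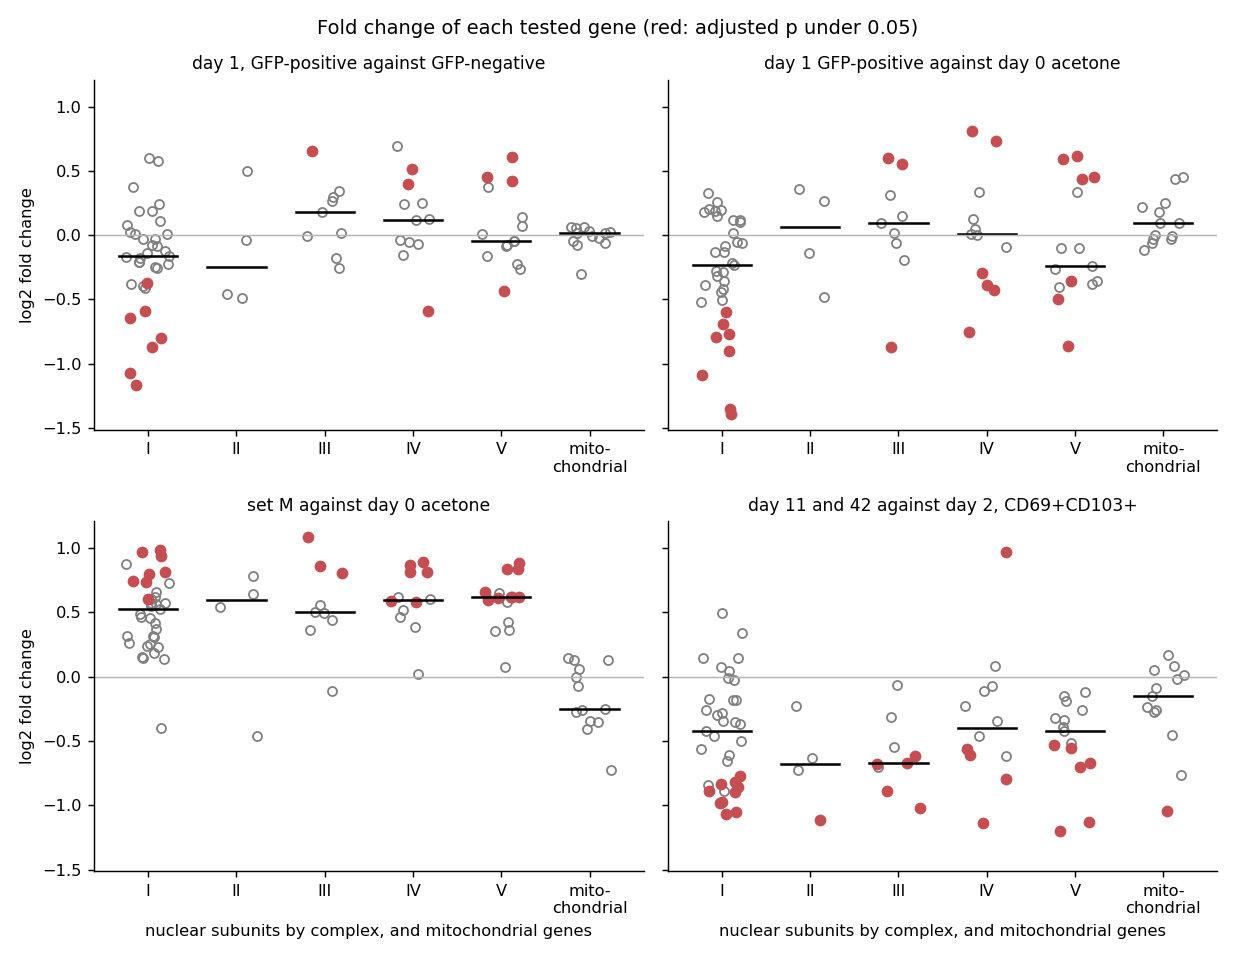
Log2 fold change (vertical axis) of each tested member in 4 comparisons, with nuclear subunits by complex I to V and the mitochondrial genes on the horizontal axis; red points had an adjusted p under 0.05 and bars are medians. In set M the median of the nuclear subunits is 0.58 and that of the mitochondrial genes -0.25, and at days 11 and 42 they are -0.50 and -0.15.

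At day 1, GFP-positive cells, those with recent TCR signalling, differed from GFP-negative cells in 16 members, shares near those over all genes. Averaged over both arms, 7 of 98 members were higher and 9 lower in GFP-positive cells, where 5.59% of all 11588 genes were called higher and 6.51% lower. Complex I subunits, the largest group among the members, made up 7 of the 9 lower genes and 0 of the higher. DESeq2 called 9 complex I subunits lower and 2 higher. A difference between the complexes was not tested. No mitochondrial gene was called (0 of 13 had an unadjusted p under 0.05, and DESeq2 called 0 higher and 0 lower), and the 13 had log2 fold changes from -0.30 to 0.06 with a median of 0.01, while all 13 were below 0 with scaling by library totals, which moved the median of all genes to -0.15. The median was -0.16 for complex I subunits, -0.04 for all nuclear subunits and -0.03 for all genes.

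Ndufv3, an accessory subunit of the complex I flavoprotein, was at 149, 154, 189 and 143 in the 4 GFP-negative libraries and at 48.5, 78.6, 98.5 and 81.7 in the 4 GFP-positive ones (log2 fold change -1.07, SE 0.15, edgeR adjusted p = 6.0e-05). Ndufa8, another accessory subunit, was at 96.7, 126, 111 and 104 and at 68.6, 71.9, 59.4 and 53.6 (log2 fold change -0.80, SE 0.15, edgeR adjusted p = 0.0012). Ndufa13, a further accessory subunit, was at 90.8, 146, 119 and 119.7 and at 83.4, 60.4, 75.3 and 41.9 (log2 fold change -0.87, SE 0.19, edgeR adjusted p = 0.0030). In these 3 genes every GFP-positive library lay below every GFP-negative one. Ndufb3 (-1.16, SE 0.21), Ndufb10 (-0.64, SE 0.17) and Ndufa6 (-0.37, SE 0.12) of complex I also fell. Outside complex I, Cox7a2l (-0.59, SE 0.13) and Atp5c1, the gamma subunit of the ATP synthase rotor (-0.43, SE 0.13), fell.

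The genes that were higher in GFP-positive cells belong to complexes III, IV and V or to assembly. Ndufaf4, a complex I assembly factor, was at 51.3, 81.7, 63.4 and 51.1 in GFP-negative and at 145, 141, 117 and 135 in GFP-positive libraries (log2 fold change 1.12, SE 0.29, edgeR adjusted p = 0.013). Atp5b was at 474, 379, 360.5 and 307 and at 508, 549, 499 and 512 (log2 fold change 0.46, SE 0.10, edgeR adjusted p = 0.0047). Uqcr10 was at 162, 103.4, 98.1 and 126 and at 176, 217, 182 and 192 (log2 fold change 0.65, SE 0.15, edgeR adjusted p = 0.0058). The GFP-negative and GFP-positive libraries of these 3 genes did not overlap. Atp5g1 (0.61, SE 0.14), Atp5d (0.42, SE 0.11), Cox5a (0.40, SE 0.11) and Cox7b (0.51, SE 0.14) rose with overlapping libraries.

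Of these 16 calls 13 remained under every other processing but library totals, and Ndufv3, Ndufb3, Ndufa8, Ndufa13 and Cox7a2l also with each library left out; leaving out library B of GFP-positive arm I gave 9 calls and library B of GFP-negative arm I gave 10. Scaling by library totals gave 4 higher and 12 lower. Summed phagocyte markers were 660.3 to 822 CPM in GFP-positive and 827 to 839.6 CPM in GFP-negative cells of arm I, and 315 to 338 and 33.2 to 44.5 CPM in arm II. Of the phagocyte markers tested 4 of 10 were called higher with GFP, while 1 of 12 keratinocyte markers was higher and 3 lower, and 2 of 7 CD8 T cell markers were lower. Their part was not tested.

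**Figure D3:**
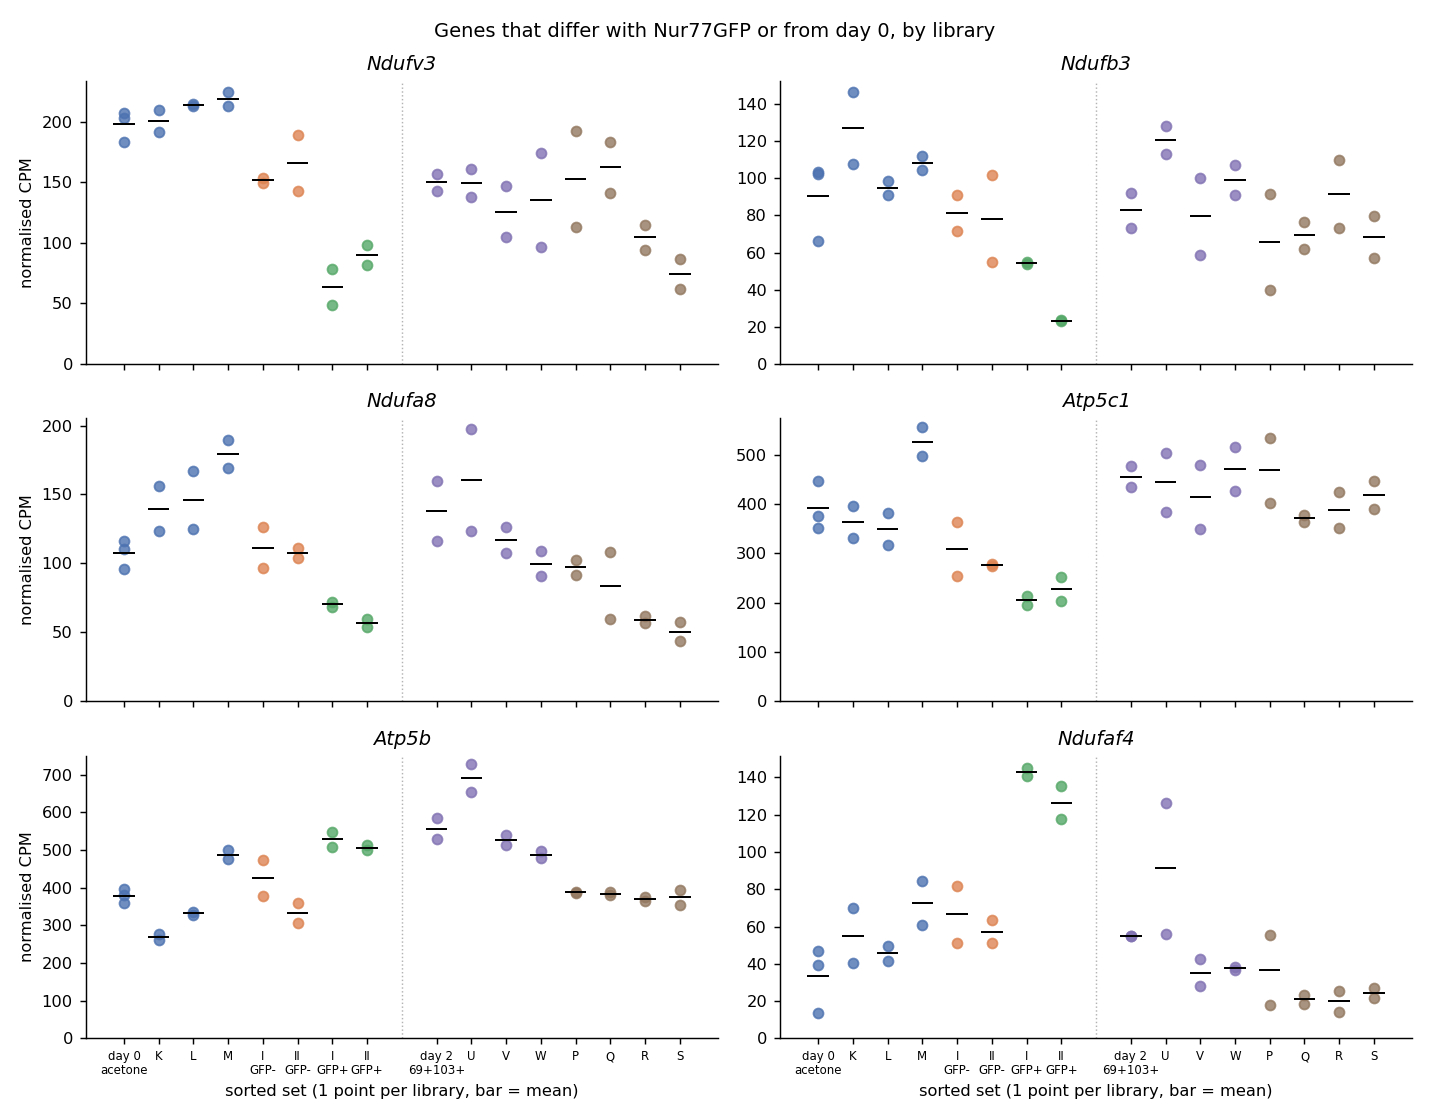
Normalised CPM (vertical axis) of Ndufv3, Ndufb3, Ndufa8, Atp5c1, Atp5b and Ndufaf4 in every library by sorted set (horizontal axis), with bars at set means. Ndufv3 is lower and Ndufaf4 higher in all 4 GFP-positive libraries than in all 4 GFP-negative day 1 libraries.

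Against day 0 acetone cells, GFP-negative day 1 cells had 1 member called, Atp5g2, where 3.12% of all genes were called higher and 3.91% lower. Atp5g2, one of the genes for subunit c, was at 783, 748 and 709 at day 0 and at 577, 399.8, 559 and 573 at day 1 (log2 fold change -0.51, SE 0.13, edgeR adjusted p = 0.026). The day 1 libraries all lay below day 0. Of the nuclear subunits 54 of 75 were below 0, with a median of -0.12, and the median of all genes was -0.12. At an unadjusted p under 0.05 there were 17 members, and DESeq2 called 1 higher and 7 lower. The count was 0 without day 0 library A or GFP-negative arm I library B, 3 without day 0 library B, and 2 without either library of set K or of GFP-positive arm II, GFP-negative arm I library A or set L library A.

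GFP-positive day 1 cells, whose GFP gate differs from that of day 0, had 9 members higher and 16 lower than day 0, where 10.8% of all genes were called higher and 14.7% lower, which is near the members' shares. This comparison shares the GFP-positive libraries with the one above. Complex I had 0 higher and 8 lower of 35, complex III 2 and 1 of 9, complex IV 2 and 4 of 12, and complex V 4 and 3 of 15. Ndufv3 was at 207, 183 and 203 at day 0 (log2 fold change -1.39, SE 0.16, edgeR adjusted p = 2.1e-06). Ndufaf4 was at 39.2, 47.1 and 13.5 at day 0 (log2 fold change 2.00, SE 0.33, edgeR adjusted p = 0.00014). Cox5a, at 258, 287, 295 and 305 in GFP-positive cells, lay above its day 0 values (log2 fold change 0.73, SE 0.12, edgeR adjusted p = 0.00010).

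Further members higher than at day 0 were Atp5d (0.59), Atp5g1 (0.61), Atp5b (0.45), Uqcr10 (0.60), Uqcrb (0.56), Atp5g3 (0.44) and Cox7c (0.81) on the log2 scale. Lower ones besides Ndufv3 included Ndufb3 (-1.35), Atp5c1 (-0.86), Cox7a2l (-0.75), Ndufb5 (-0.79), Ndufa6 (-0.60) and Ndufa8 (-0.77). With library totals alone, under which the median of all genes moved from -0.18 to -0.48, 2 members were called higher and 42 lower. Of the 25 calls 19 remained under every other processing but library totals and 15 also with each library left out. Keratinocyte markers summed to 469 to 1451 CPM in GFP-positive and 513 to 2142 CPM in GFP-negative day 1 cells, both below day 0 at 3472 to 4064 CPM. CD8 T cell markers summed to 4062 to 4657 CPM in GFP-positive and 4582 to 6034 CPM in GFP-negative cells, also both below day 0 at 7732 to 9144 CPM, while neutrophil markers, at 11.6 to 85.2 and 11.5 to 89.2 CPM, both lay above day 0 at 2.87 to 10.7 CPM. Fibroblast markers summed to 1.64 to 44.1 and 4.60 to 39.7 CPM against 43.6 to 169 CPM at day 0. The part of these markers was not tested.

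The day 1 arms differed in GFP-negative cells at 12 members, 2 higher and 10 lower with arm II set against arm I, where 1.98% of all genes were called higher and 4.71% lower. Cox7a2l was at 131 and 147 in arm I and at 345 and 289 in arm II (log2 fold change 1.19, SE 0.18, edgeR adjusted p = 0.00024). mtNd3 was at 7154 and 5318 and at 9055 and 7778 (log2 fold change 0.43, SE 0.13, edgeR adjusted p = 0.049). Among the lower genes, Ndufc2 was at 312 and 301 in arm I and at 184 and 131 in arm II (log2 fold change -0.96, SE 0.19, edgeR adjusted p = 0.0030). For all 12 genes the arms did not overlap, but the genes were called on these same libraries. The share of all genes tested in which these arms did not overlap is not given here. The other lower genes were Ndufb6, Ndufa12 and Ndufb2 of complex I, Cox7b, Ndufa4 and Cox6c of complex IV, and Atp5d, Atp5k and Atp5g1 of complex V, between -1.08 and -0.52 on the log2 scale. Of the 12 calls 6 remained under every other processing but library totals, and Cox7a2l alone also with each library left out; without GFP-negative arm I library A there were 3 calls, and without GFP-negative arm II library A or B there were 5 and 4.

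Several other measures moved with the arms in GFP-negative cells. Arm I had 5440609 and 6741144 reads and arm II 2442825 and 2519106. Mitochondrial ribosomal RNA took 12.1% and 14.4% of reads in arm I and 19.5% and 21.8% in arm II. Phagocyte markers summed to 827 to 839.6 CPM in arm I and 33.2 to 44.5 CPM in arm II (4 of 10 tested called lower), and keratinocyte markers to 1986 to 2142 and 513 to 691 CPM (6 of 12 lower). Neutrophil markers summed to 82.0 to 89.2 CPM in arm I and 11.5 to 11.9 CPM in arm II (2 of 4 lower), and CD8 T cell markers to 5976 to 6034 and 4582 to 5005 CPM (2 of 7 lower). With all libraries thinned to the smallest, 1 member was higher and 10 were lower, and the part of the other measures was not tested.

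In GFP-positive cells 5 members differed between arms, 4 higher and 1 lower in arm II, where 0.923% of all genes were called higher and 2.24% lower. Cox7a2l was at 106 and 107 in arm I and at 183 and 184 in arm II (log2 fold change 0.79, SE 0.18, edgeR adjusted p = 0.018), and mtNd3 was at 5683 and 6829.9 and at 9285 and 8956 (log2 fold change 0.54, SE 0.13, edgeR adjusted p = 0.023). Both had the sign they had in GFP-negative cells. Cox4i1, a regulatory subunit of complex IV, was at 461 and 489 and at 754 and 693 (0.61, SE 0.15). Atp5h, a peripheral stalk subunit, was at 686 and 756 and at 1016 and 1121 (0.57, SE 0.14), and Ndufb3 was at 54.96 and 53.7 and at 23.5 and 23.2 (-1.22, SE 0.30). All 5 calls remained under every other processing but library totals. Leaving out 1 library left 0 to 6, with 0 without GFP-positive arm I library A, 1 without its library B or either GFP-positive arm II library, and 3 without day 0 library B or C, GFP-negative arm I library B, or either library of set L. In GFP-positive cells too, markers moved with the arms without overlap. Keratinocyte markers summed to 1114 to 1451 CPM in arm I and 469 to 525 CPM in arm II (7 of 12 called lower), and phagocyte markers to 660.3 to 822 and 315 to 338 CPM (1 of 10 lower). Neutrophil markers summed to 76.2 to 85.2 CPM in arm I and 11.6 to 38.6 CPM in arm II (1 of 4 lower), fibroblast markers to 1.64 to 2.70 and 41.4 to 44.1 CPM (2 of 6 higher) and CD8 T cell markers to 4062 to 4072 and 4332 to 4657 CPM (1 of 7 higher and 1 lower). Mitochondrial ribosomal RNA took 10.5% and 12.2% of reads in arm I and 12.5% and 14.9% in arm II, and the part of these measures was not tested. Total reads were 8515297 and 6291020 in arm I and 3262545 and 2678738 in arm II.

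The difference between arms in the GFP difference, tested as an interaction, was called for no member by edgeR, where 0.639% of all genes were called higher and 0.25% lower. At an unadjusted p under 0.05 there were 20 members, and DESeq2 called 5. The member with the smallest p was Atp5j2, a membrane subunit of the ATP synthase, with an interaction of 0.99 on the log2 scale (SE 0.27, edgeR adjusted p = 0.10).

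In the second experiment, nuclear subunits of all 5 complexes were among the genes lower in CD69+CD103+ TRM of days 11 and 42 than in day 2 CD69+CD103+ cells. Of 98 members 27 were lower and 1 higher, where 4.88% of all 12236 genes were called lower and 3.32% higher. The lower genes comprised 10 of 35 complex I, 1 of 4 complex II, 5 of 9 complex III, 4 of 12 complex IV and 6 of 15 complex V nuclear subunits, and 1 mitochondrial gene. Of the nuclear subunits 67 of 75 were below 0, with a median log2 fold change of -0.50, against -0.07 over all genes and -0.15 over the mitochondrial genes.

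Cox5a was at 274 and 268 at day 2, 159.9 and 181 in set P, 194 and 192 in Q, 162 and 142 in R and 104 and 132 in S (log2 fold change -0.80, SE 0.15, edgeR adjusted p = 0.0021). Ndufa4 was at 593 and 735 at day 2 and between 259 and 363 in the 8 later libraries (log2 fold change -1.13, SE 0.15, edgeR adjusted p = 6.7e-05). Ndufc2 was at 333 and 349.6 and between 151 and 248 (log2 fold change -0.84, SE 0.16, edgeR adjusted p = 0.0022). In these 3 genes, and in Uqcr10 at 179 and 193 against 74.5 to 115 (log2 fold change -1.02, SE 0.18, edgeR adjusted p = 0.0011), every later library lay below both day 2 libraries. Their promoters are the ones printed above. Atp5g1 and Atp5g3 encode the same subunit c of the membrane ring, and both fell. Atp5g3 was at 775 and 916 at day 2 and between 286 and 459 later (log2 fold change -1.13, SE 0.14, edgeR adjusted p = 2.3e-05), and Atp5g1 had a log2 fold change of -1.198 (SE 0.17).

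Sdhb, the iron-sulphur subunit of complex II, was at 104 and 116 at day 2 and between 29.5 and 83.1 later (log2 fold change -1.11, SE 0.25, edgeR adjusted p = 0.0068). Of the mitochondrial genes, mtNd4l, a complex I subunit, was at 1305 and 1763 and between 439.6 and 1056 (log2 fold change -1.04, SE 0.22, edgeR adjusted p = 0.0069). The neighbouring mtNd4, which overlaps mtNd4l by 7 bases, was not called. Its values, 8780 and 9216 at day 2 and between 4603 and 10412 later, overlapped. mtCo1 and mtCo2, which form the catalytic core of complex IV, had log2 fold changes of 0.17 (SE 0.22) and 0.01 (SE 0.20), and neither was called. Cox7a2l was the single member to rise, from 90.5 and 125 to between 185 and 288 (log2 fold change 0.97, SE 0.29, edgeR adjusted p = 0.045), a call lost with scaling by library totals. In Sdhb, mtNd4l and Cox7a2l the later and day 2 libraries did not overlap.

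Other members lower at the later days included Ndufb7 (-1.06), Ndufv2 (-1.05), Ndufa3 (-0.89) and Ndufs3 (-0.86) of complex I, Uqcrq (-0.68), Uqcrfs1 (-0.67), Uqcrc1 (-0.89) and Uqcrb (-0.62) of complex III, Cox6b1 (-0.61) and Cox7b (-0.56) of complex IV, and Atp5b (-0.56), Atp5d (-0.70), Atp5a1 (-0.53) and Atp5j (-0.67) of complex V, on the log2 scale. Uqcrq, Uqcrc1 and Uqcrfs1 overlapped day 2. Uqcrq was at 471 and 558 at day 2 and at 501 and 486 in set P. Uqcrc1 was at 132 and 96.3 at day 2 and at 75.7 and 165 in set P. Uqcrfs1 was at 148.7 and 190.7 at day 2 and at 150.3 and 147.7 in set Q. Of the 28 calls 24 remained under every other processing but library totals, and Atp5g1, Atp5g3, Cox5a, Ndufa4, Ndufc2 and Uqcr10 also with each library left out; with day 2 library 1 left out 13 members were called, and with library 2 left out 7. Day 2 cells were taken after DNFB but with neither acetone nor TA. Total reads were 11532881 and 11395588 at day 2 and 2937814 to 7407069 later. Other markers also moved with the days. Neutrophil markers summed to 121 to 130.4 CPM at day 2 and 2.22 to 18.3 CPM later (2 of 3 tested called lower), CD4 T cell markers to 13.2 to 27.4 and 0 to 1.201 CPM (1 of 1 lower) and CD8 T cell markers to 4906 to 5071 and 5369 to 7759 CPM (2 of 7 higher), each without overlap. Keratinocyte markers summed to 4019 to 6240.1 CPM at day 2 and 2119 to 5748 CPM later, which overlapped, with 1 of 12 called higher and 3 lower. The part of these markers was not tested.

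**Figure D4:**
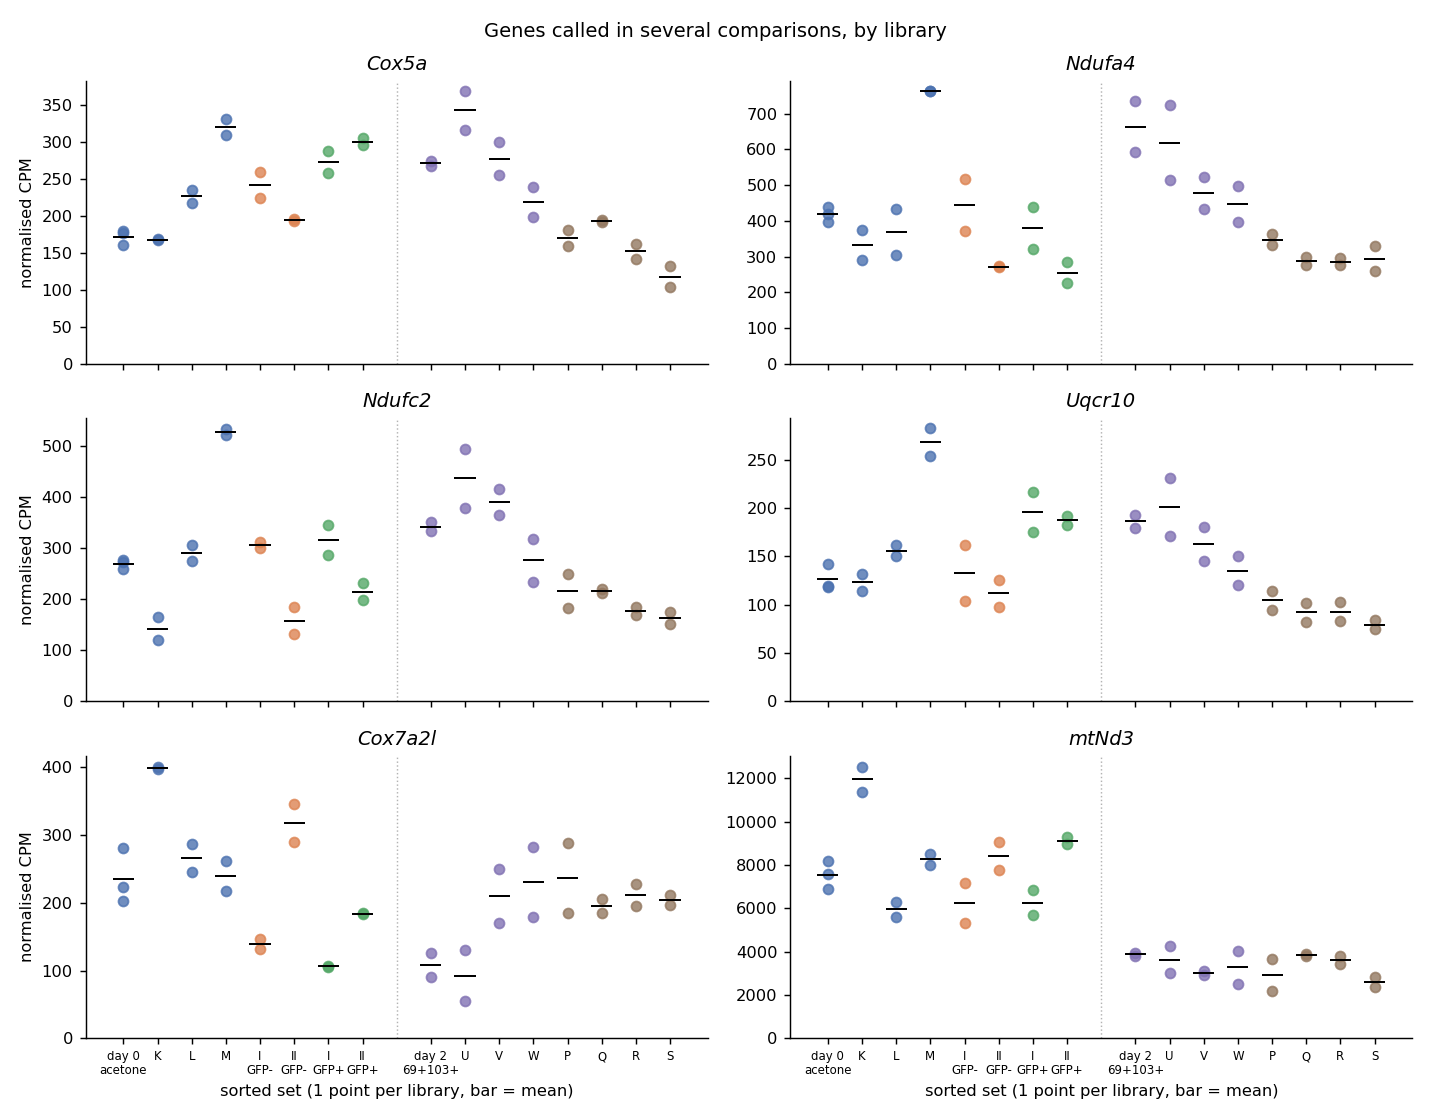
Normalised CPM (vertical axis) of Cox5a, Ndufa4, Ndufc2, Uqcr10, Cox7a2l and mtNd3 in every library by sorted set (horizontal axis), with bars at set means. The first 4 genes lie higher in set M than at day 0, and lower in sets P to S than in day 2 CD69+CD103+ cells; both experiments were normalised separately.

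Among the 4 later sets, 2 members differed, Uqcrq and Uqcrc1, both of complex III, where 2.12% of all genes were called. Uqcrq was at 501 and 486 in set P, 325 and 248 in Q, 299 and 287 in R and 238 and 274 in S (edgeR adjusted p = 0.032). Uqcrc1, a core subunit, was at 75.7 and 165 in set P and between 43.2 and 60.7 in the other 3 sets (edgeR adjusted p = 0.049). Set P was higher than the others in both genes. Leaving out 1 library left 0 to 3 calls, with 0 without set S library 1 and 1 without either library of set P or of set R, and DESeq2 called 9 members. Set P also had the highest sum of phagocyte markers, 844 to 957 CPM against 267 to 645 CPM in the other 3 sets, and the lowest of fibroblast markers, 53.5 to 57.8 against 91.5 to 417 CPM. Among the later sets 6 of 11 phagocyte, 7 of 12 keratinocyte and 2 of 7 fibroblast markers were called, and their part was not tested.

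Among day 2 cells, CD69+CD103+ cells and the mean of the 3 other subsets differed in no member by edgeR, where 0.319% of all genes were called higher and 0.049% lower. At an unadjusted p under 0.05 there were 5 members, and DESeq2 called 0. All 13 mitochondrial genes were above 0, with a median log2 fold change of 0.29, against 0.06 over all genes. The one with the smallest p, mtNd4l, was at 1305 and 1763 in CD69+CD103+ cells and at 1148 and 849 in U, 1088 and 749 in V and 821 and 774 in W (log2 fold change 0.77, SE 0.24, edgeR adjusted p = 0.36). A difference of any kind among the 4 subsets was called for no member, where 1.21% of all genes were called, while 10 members had an unadjusted p under 0.05 and DESeq2 called 2. Cox7a2l, with an edgeR adjusted p = 0.12 there, was at 54.7 and 129.9 in U, 169.7 and 250.5 in V and 179 and 282 in W, and U overlapped CD69+CD103+ cells.

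Over the whole first experiment Cox7a2l ran from 106 to 400.0. Both libraries of GFP-positive arm I were lowest and both of set K highest, with day 0, L and M between 203 and 287. The mitochondrial genes, apart from mtNd6, had a highest level of at most 2.92 times the lowest in the first experiment and 4.01 times in the second, where mtNd4l varied most. mtNd2 ran from 3801 to 9884 in the first experiment and from 2890.4 to 10108 in the second, mtNd5 from 2554 to 7450.0 and from 2397 to 5889, and mtNd4 from 5947 to 11393 and from 4603 to 10650.1, all of complex I. Of complexes V and IV, mtAtp6 ran from 25551 to 47321 in the first experiment and from 23089 to 49901 in the second, and mtCo1 from 11342 to 27366 and from 13548 to 27561. mtNd6, the one mitochondrial member on the opposite strand, was low, at 0.249 to 18.9 and 2.56 to 26.8. Neighbouring mitochondrial genes overlap, mtAtp8 and mtAtp6 by 43 bases, mtNd4l and mtNd4 by 7, mtNd5 and mtNd6 by 14 and mtAtp6 and mtCo3 by 1, so reads there cannot be given to one gene with certainty.

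Of the members, 98 passed the filter on low counts in each experiment. The members left out of the tests were Cox6a2, known from heart and skeletal muscle, Cox6b2, known from testis, Ndufa4l2, and, in the first experiment, Ndufs5, with 10 reads. Cox6a2 reached 6.10 and 0.972 at most in the 2 experiments, Cox6b2 0.975 and 1.198, Ndufa4l2 3.55 and 1.86, and Cox7a1, a muscle isoform that was tested, 3.26 and 2.79. Each of these 4 was at 0 in at least 1 library of both experiments. The names Cox4i2, Cox7b2, Cox8b and Cox8c match the rule but had under 10 reads and are no members. The 7 complex I assembly factors were all above 0 in set M, with a median log2 fold change of 1.09, while 2 of them had an unadjusted p under 0.05 and 0 passed the edgeR test.

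Some members share their 3′ end with other genes, and their counts are uncertain where the counting could not separate them. A comparison of the last 300 bases of each transcript in words of 50 bases found no shared word in 68 of 89 nuclear members. At least 50% was shared in 5, Atp5o (94.8%), Cox7c (73.3%), Atp5l (70.1%), Ndufs5 (54.6%) and Ndufs3 (53.0%). Among mitochondrial genes 6 of 13 shared that much with nuclear copies, mtCo1, mtCo2, mtCo3, mtAtp6, mtNd3 and mtNd4l.

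Of the genes that work beside the chain, Cycs encodes cytochrome c. It was higher in GFP-positive than GFP-negative cells (0.66, SE 0.12, edgeR adjusted p = 0.0010), in GFP-positive day 1 cells against day 0 (1.35, SE 0.14, edgeR adjusted p = 4.3e-07) and in set M against day 0 (0.77, SE 0.16, edgeR adjusted p = 0.0052), and lower at the later days (-0.94, SE 0.17, edgeR adjusted p = 0.0015), as log2 fold changes. In the list of electron carriers that holds Cycs, 2 of 15 genes tested were higher in set M, Cycs and Etfb, and 0 lower. At the later days 1 of 14 was lower and 0 higher. The copper chaperone Cox17, of the complex IV assembly list, rose in GFP-positive cells (0.66, SE 0.17, edgeR adjusted p = 0.012) and fell at the later days (-0.998, SE 0.14, edgeR adjusted p = 0.00012). That list had 1 of 18 higher and 3 lower with GFP, 0 called in set M and 1 lower later.

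The share of all genes called, against which these list counts are read, was 5.59% higher and 6.51% lower with GFP, 3.12% and 3.91% in GFP-negative and 10.8% and 14.7% in GFP-positive cells against day 0, 2.87% and 1.7% in set M, and 3.32% and 4.88% at the later days. The TCA cycle list, of 17 genes, had 1 lower with GFP (Suclg1, -0.88), which is near the share over all genes. In GFP-positive cells against day 0 it had 2 higher (Mdh2, 0.58, and Ogdh, 0.77) and 3 lower (Cs, -1.07, Suclg1, -1.25, and Idh2, -4.05). It had 1 higher in set M (Mdh2, 0.90) and 2 lower later (Mdh2, -0.99, and Cs, -0.82).

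Of 12 transcriptional regulators tested, 2 were higher with GFP (Myc, 1.29, and Tbl1x, 2.22). Against day 0, 4 were higher in GFP-negative cells (Myc, 1.77, Yy1, 0.80, Hif1a, 0.71, and Foxo1, 0.51) and 5 in GFP-positive cells, led by Myc (3.05) and Hif1a (1.16); both comparisons share the day 0 libraries. In set M 2 were lower (Foxo1, -1.32, and Hif1a, -0.90), and at the later days Hif1a was lower (-1.47) and Foxo1 higher (0.99). Of 20 factors that transcribe or process mitochondrial RNA, 1 was higher with GFP (Tbrg4, 1.78), 1 in set M (Slirp, 0.997) and 0 were called later. The mitochondrial translation list had 2 of 9 lower with GFP (Tsfm and Oxa1l) and 0 called in set M. In set L against day 0, and between day 2 CD69+CD103+ cells and the other subsets, these lists had 0 genes called.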

How the data were processed

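Bulk RNA of FACS-sorted skin CD8 T cells was sequenced by CEL-seq2 in 33 libraries. The deposited values are raw read counts per gene and library, in 1 table per experiment. The tools were BWA 0.7.15, HTSeq and bcl2fastq 2.2, with the GRCm38 build, per the submitters' processing notes; whether barcodes were collapsed and how strand was counted are not given in the sources used here. CEL-seq2 reads 3′ ends, so counts were not scaled by gene length. Spike-in rows (0 to 16 reads per library in the first experiment and 0 to 3 in the second) were left out.

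Members and gene lists were chosen with earlier results of these data known. Genes with low counts were removed by filterByExpr, counts were scaled by TMM, and each experiment was fitted once over all its sets with edgeR 4.0.16 (quasi-likelihood, robust) in R 4.3.3, with Benjamini-Hochberg adjustment over all genes and a threshold of 0.05. The standard error is the absolute log2 fold change divided by the square root of F. Alternatives were DESeq2 1.42.0, median-of-ratios factors, scaling without mitochondrial rows, no filter, thinning to the smallest library, a replicate block, each library left out, and library totals only. Genes named are the 13 mitochondrial genes where described, the members with the highest mean CPM of each complex, and up to 8 called members per direction by smallest p; others were named after their values were seen, and 1 member that is counted is not reported by name here. On simulated counts for the GFP comparison (11047 genes), edgeR called 25 of 100 genes set to a 2-fold difference and 66 of 100 set to 4-fold. For the later days against day 2 (11647 genes) the numbers were 10 of 100 and 61 of 100, with 9 false among 80 calls. For the GFP comparison 2 of 93 edgeR calls were false. DESeq2 made more false calls on the same simulated counts, 23 of 137 for GFP and 31 of 122 for the later days. Its larger counts of called members are read with this limit. Promoters came from RefSeq tables, and transcripts and overlaps from GENCODE M21. Python 3.11.15, pandas 2.3.3 and matplotlib 3.10.9 made the tables and plots.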

Additional observations from a re-analysis of the deposited data

How the results depend on the processing

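Over all alternatives, 239 counts of called members stayed within 1.5 times the count reported and 65 did not, and of single-gene fold changes 6930 kept direction and side of the threshold, 221 lost the call, 84 gained one and 1 turned direction. The one that turned was mtCo3 in GFP-positive day 1 cells against day 0, at -0.22 with library totals only, an alternative chosen after seeing the data. For GFP-negative day 1 cells against day 0 (1 member called), there were 4 with median-of-ratios factors, 4 with no low-count filter, 8 with DESeq2, 2 after thinning, 2 among nuclear members scaled without mitochondrial rows and 14 with library totals only. Library totals only gave 44 for GFP-positive cells against day 0, 8 between arms in GFP-positive cells and 1 for the interaction, which had 5 with DESeq2 and 2 after thinning. DESeq2 gave 24 between arms in GFP-negative cells, 1 for set L (7 with no filter), 43 for set M, 2 among day 2 subsets (4 with no filter) and 9 among the later sets (11 with no filter, 1 with median-of-ratios factors), and no filter gave 2 for day 2 CD69+CD103+ cells against other subsets. The cause of these changes was not tested.

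Leaving out 1 library gave 9 to 17 calls for GFP, 0 to 3 for GFP-negative and 20 to 25 for GFP-positive cells against day 0, 3 to 14 between arms in GFP-negative and 0 to 6 in GFP-positive cells, 0 to 1 for the interaction, 3 to 9 for set K, 0 for set L, 12 to 33 for set M, 0 to 1 for day 2 CD69+CD103+ cells against the other subsets, 0 to 1 among day 2 subsets, 7 to 31 for the later days against day 2 and 0 to 3 among the later sets. The single call for day 2 CD69+CD103+ cells came without either library of set P, that among the subsets without set U library 2, and that for the interaction without GFP-positive arm II library A. A set left with 1 library was assumed to vary like the others.

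No shared effect of the library letters was seen in the first experiment. Over 21 pairs of sets, deviations of same-lettered libraries correlated at -0.0596 to 0.0329, none over 0.1. Whether same-lettered libraries came from the same mice cannot be told from this. With the letters as a replicate block, calls numbered 0 for GFP-negative cells against day 0, 7 between arms in GFP-negative cells, 3 for set K and 16 for set M. With 2 to 3 libraries per set and totals from 2442825 reads, differences of 2-fold could go uncalled. Of 100 genes simulated with that difference, edgeR called 25 for the GFP comparison and 10 for the later days against day 2. The simulations covered 11047 and 11647 genes and not the members alone, so these shares are not those of the members. With GFP, members such as Ndufa6, Cox5a and Atp5d were called at smaller differences.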
